A study of Mus musculus with 30 samples.

Results

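Fatty acid synthesis and desaturase genes were described here by 10 members, Acly, Acaca, Fasn, Elovl6, Scd1, Scd2, Fads1, Fads2, Gpam and Dgat1, out of 12393 genes that the array annotation names. Their members were all probe sets (groups of short probes that together read one transcript) annotated with exactly 1 of these symbols, which gave 20 probe sets: 5 for Acly, 3 for Scd2, 2 each for Scd1, Elovl6, Fads2 and Gpam, and 1 each for Acaca, Fasn, Fads1 and Dgat1. Total RNA of stomach, kidney, liver, salivary tissue and brain was compared between ERRγ null and wild-type newborn mice, with 3 arrays in each of the 10 groups and 30 arrays in all. ERRγ, the product of Esrrg, is a nuclear receptor related to the estrogen receptors. Both genotypes shared a mixed SV129/C57BL/6 background, the age given as neonatal, an unknown gender, standard chow and no treatment. Heart, which the title of the series names, was not analysed here. Nothing in the labels ties the arrays of a group to separate animals, so p-values cover only the spread among these arrays, part of which may be technical. With 3 arrays a group, the number of arrays limits the precision.

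Fatty acid synthesis starts from citrate, which ATP citrate lyase (Acly) splits to acetyl-CoA. Acetyl-CoA carboxylase (Acaca) turns this into malonyl-CoA, and fatty acid synthase (Fasn) joins malonyl units into palmitate. Elovl6 lengthens palmitate, and the stearoyl-CoA desaturases Scd1 and Scd2 place a double bond in the product, which gives the monounsaturated fatty acids of membranes and fat stores. Fads1 and Fads2 desaturate the polyunsaturated fatty acids taken up with food. Gpam, the mitochondrial glycerol-phosphate acyltransferase, starts the assembly of glycerolipids, and Dgat1 adds the last acyl chain of a triglyceride. In adult rodents these genes follow insulin, feeding and the sterol regulatory element binding protein SREBP1c in liver and fat.

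The samples carried differences besides genotype that touch the results below. All values are log2 MAS5 signals, and array medians lay between 5.80 and 6.08. Tissue transcripts had means of 9.72 in null and 10.75 in wild-type arrays for Umod in kidney, 13.04 in null and 12.94 in wild-type arrays for Alb in liver, 12.81 in null and 12.93 in wild-type arrays for Bpifa2 in salivary tissue, and 9.62 in null and 10.02 in wild-type arrays for Snap25 in brain. Atp4b, a subunit of the gastric proton pump of parietal cells, averaged 6.38 in null stomach, against 11.19 in wild-type stomach, and the null mean lay within the range of the other tissues (3.62 to 6.51). Esrrg had 1 dim probe set, at 5.89 to 6.76 on all 30 arrays, and where it lies relative to the deleted part was not known, so it checks nothing. The mean 3' minus 5' gap over the controls for Gapdh and Actb, a measure of RNA integrity, was larger in null than in wild-type stomach (3.22 ± 0.34 against 2.09 ± 0.43, SD, n = 3), while the null minus wild-type difference of this gap was -0.09 in kidney, -0.16 in liver, -0.19 in salivary tissue and 0.05 in brain. Alb, a hepatocyte transcript, read 6.81, 6.19 and 7.06 in null stomach, against 5.93, 10.25 and 11.90 in wild-type stomach. Milk and mammary transcripts were lower in null stomach in 4 of 4 tested, of 6 listed, with summed linear signals of 176 to 496 in null arrays, against 1970 to 3360 in wild-type arrays, and among them the whey protein Wap read 5.38, 6.88 and 5.26 in null stomach, against 9.20, 10.06 and 10.24 in wild-type stomach. Of the skeletal muscle markers 2 of 2 tested were lower in null stomach (summed 154 to 193 in null arrays, against 291 to 341 in wild-type arrays), and of the hepatocyte markers 1 of 4 was lower (2000 to 3040 in null arrays, against 2550 to 13400 in wild-type arrays). These stomach differences stand beside every stomach result below, and except for Alb their part in those results was not tested. The Gapdh gap entered some fits below. In stomach it did not overlap between genotypes, with the lowest null array at 3.53 and the highest wild-type array at 3.11. A stomach fit with it therefore cannot separate the gap from genotype, and calls lost in that fit do not show its part. Ucp1, the uncoupling protein that defines brown fat, read 11.31, 12.75 and 11.02 in null salivary tissue, against 5.99, 4.04 and 12.14 in wild-type salivary tissue. Xist was low in null replicate 1 and wild-type replicate 3 and high in the other replicates in all 5 tissues. In bulk tissue, fewer cells of a type and less RNA per cell cannot be told apart.

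Member genes changed in stomach, salivary tissue and liver. A probe set was tested in a tissue if its 6 arrays averaged at least the 40th percentile of all probe sets there, and it was called where the limma test gave an adjusted p under 0.05 (Benjamini-Hochberg over all probe sets of the tissue). In null stomach 5 of 13 tested member probe sets were lower, 1 was higher and 7 did not pass, beside 23.5% of all tested probe sets called in either direction (12.2% lower and 11.2% higher). In null liver 3 of 14 were lower, 3 were higher and 8 did not pass, beside 6.93% of all (3.46% lower and 3.47% higher). In null salivary tissue 2 of 14 were lower, 3 were higher and 9 did not pass, beside 8.22% of all (4.72% lower and 3.50% higher). In kidney 0 of 14 and in brain 0 of 18 passed, beside 0.781% (0.412% higher and 0.368% lower) and 0% of all. The median difference over tested members was -0.28 in stomach, 0.04 in kidney, -0.27 in liver, -0.06 in salivary tissue and 0.01 in brain, beside 0.03, 0.01, 0.03, 0.02 and 0.01 over all tested probe sets. Null and wild-type values of a tested member did not overlap for 2 higher and 5 lower probe sets in stomach, beside 42.8% of all tested probe sets (22.4% higher and 20.4% lower). The counts were 3 higher and 7 lower in liver beside 27.9% (15.3% and 12.6%), and 4 higher and 4 lower in salivary tissue beside 28.2% (13.1% and 15.1%). They were 2 higher and 0 lower in kidney beside 20% (10.1% and 9.81%), and 1 higher and 1 lower in brain beside 15.7% (8.14% and 7.53%). The members were proposed with results of these data known, so their share of calls is a description. Of the 20 probe sets 11 were called in at least 1 tissue and 11 were tested in every tissue, and 2 of the 5 probe sets of Acly were tested in none.

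**Figure D1:**
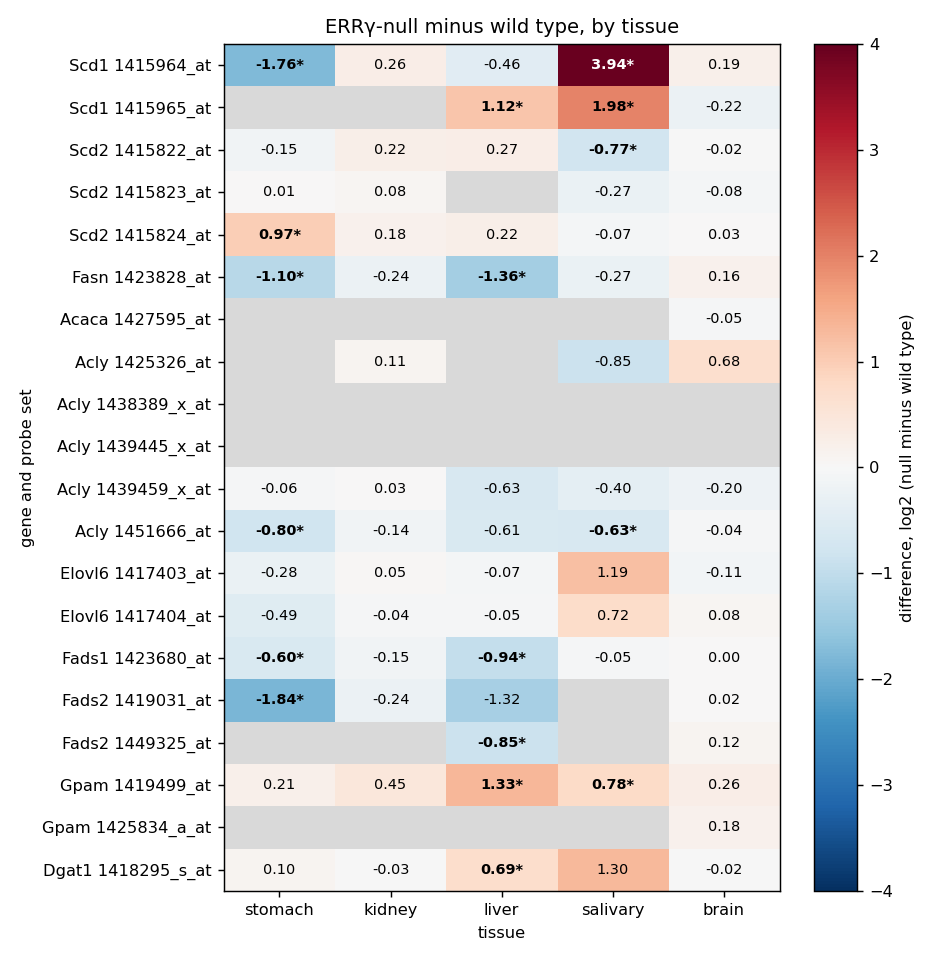
Difference of ERRγ-null minus wild-type mean on the log2 scale for each of the 20 member probe sets (rows) in each of 5 tissues (columns), with 3 arrays a group. Colours run from -4 to 4, an asterisk marks a limma adjusted p under 0.05 and grey marks probe sets not tested, and the darkest cell is the rise of Scd1 in null salivary tissue (3.94) above a fall of the same probe set in null stomach (-1.76).

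Scd1, which makes oleate in most adult tissues of the mouse, moved in opposite directions in salivary tissue and stomach. At the brighter of its probe sets, 1415964_at, it read 10.86, 12.19 and 11.74 in null salivary tissue, against 7.74, 7.76 and 7.46 in wild-type salivary tissue. Every null value lay more than 3 log2 units above every wild-type value, and Scd1 held rank 6 by size among the rises of 13576 tested probe sets. The difference was 3.94 ± 0.29 (SE), a 15.4-fold higher signal (limma, adjusted p = 0.000308). In stomach the same probe set read 6.76, 6.96 and 6.92 in null arrays, against 8.05, 8.91 and 8.95 in wild-type arrays. The groups did not overlap here either, and null values were the lower ones. Scd1 fell by 1.76 ± 0.23 (SE) on the log2 scale in null stomach, 3.38-fold (limma, adjusted p = 0.00242). It was the 1 member probe set called in opposite directions in different tissues. The difference between both effects, stomach minus salivary, was -5.70 ± 0.33 (SE; limma over all 30 arrays, adjusted p = 9.67e-12).

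With Alb in the fit as a covariate the Scd1 difference in stomach was -1.34 and passed (limma, adjusted p = 0.0148). When the Gapdh gap entered the fit, the difference was -2.05 and did not pass (limma, adjusted p = 0.272), in a fit that called 2 of all 13576 probe sets. Leaving out wild-type replicates 2 and 3, which were high in Alb, it was -1.17 and did not pass (limma, adjusted p = 0.0841), with the 1 wild-type array left assumed to vary like the other group. The remaining wild-type array, at 8.05, still lay above all 3 null values.

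**Figure D2:**
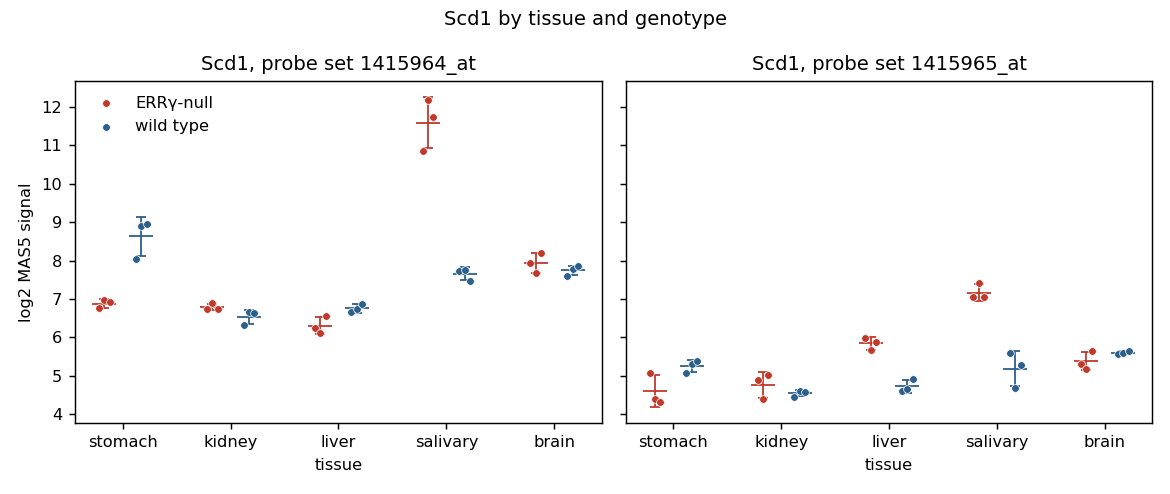
Log2 MAS5 signal of Scd1 at both of its probe sets in 5 tissues. Points are arrays, red ERRγ-null and blue wild type, and bars are mean and SD of 3 arrays. The null salivary arrays at 10.86 to 12.19 (left panel) stand apart from all other groups, and null stomach lies under wild-type stomach.

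The second Scd1 probe set, 1415965_at, was dimmer and rose in null salivary tissue as well. It read 7.04, 7.42 and 7.04 in null salivary tissue, against 5.58, 4.68 and 5.29 in wild-type salivary tissue. The groups did not overlap, with a difference of 1.98 ± 0.26 (SE; limma, adjusted p = 0.00325), and the wild-type mean of 5.18 was below the filter level there (5.37), so the fold is bounded by background. In stomach its means of 4.60 in null and 5.25 in wild-type arrays lay under the filter, and it was not tested. In liver the probe sets disagreed. The dim one read 5.99, 5.66 and 5.88 in null liver, against 4.59, 4.66 and 4.91 in wild-type liver, with no overlap. It rose by 1.12 ± 0.25 (SE; limma, adjusted p = 0.0295), with a wild-type mean of 4.72 under the level of the filter (5.24). The call was lost without any 1 of 5 of the 6 arrays. Those 5 liver fits called 194 to 325 of all 13577 probe sets, against 941 with all arrays. The bright one read 6.25, 6.11 and 6.55 in null liver, against 6.65, 6.75 and 6.88 in wild-type liver, a difference of -0.46 ± 0.18 in the other direction that did not pass (SE; limma, adjusted p = 0.167).

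Brown fat and muscle transcripts averaged higher in null than in wild-type salivary arrays, beside Scd1, though none of those tested passed. All 5 brown fat markers were tested in salivary tissue and 0 passed, and their summed linear signal ranged from 2880 to 9210 in null arrays, against 121 to 5770 in wild-type arrays. The highest wild-type sum was that of replicate 3, whose Ucp1 of 12.14 lay among the null values. In that array Scd1 stood at 7.46, the lowest of all salivary arrays, and the null mean lay 4.14 above it. Without the other 2 wild-type arrays, a fit added with the values known, the difference of 1415964_at was 4.14 (limma, adjusted p = 0.0246), with the 1 wild-type array left assumed to vary like the null group, and with Ucp1 as a covariate it was 4.01 (limma, adjusted p = 0.00231). The dim probe set differed by 1.88 without those arrays and did not pass (limma, adjusted p = 0.0592). Of 8 adipocyte markers 6 had a probe set, 5 were tested and 0 passed. Their summed signal was 5460 to 11200 in null arrays, against 1770 to 6840 in wild-type arrays, and leptin, a hormone of white fat, stayed at or under 3.65. Skeletal muscle markers did not overlap, with summed signals of 302 to 589 in null salivary tissue, against 79.5 to 95.8 in wild-type salivary tissue, led by Acta1 of the thin filament at 8.37, 8.10 and 7.52 in null arrays, against 1.31, 1.74 and 4.66 in wild-type arrays. Of the 5 muscle markers 1 was tested and 0 passed. Of 5 hepatocyte markers with a probe set 2 were tested and 0 passed, with summed signals of 184 to 1900 in null arrays, against 84.7 to 340 in wild-type arrays, nearly all from Ttr, while Alb stayed at 6.55 or less and Fgb, the fibrinogen beta chain, at 1.06 or less. With the adipocyte mean as a covariate the Scd1 rise at 1415964_at passed too. The part of the other RNAs, those of muscle and Ttr among them, in the Scd1 values was not tested.

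**Figure D3:**
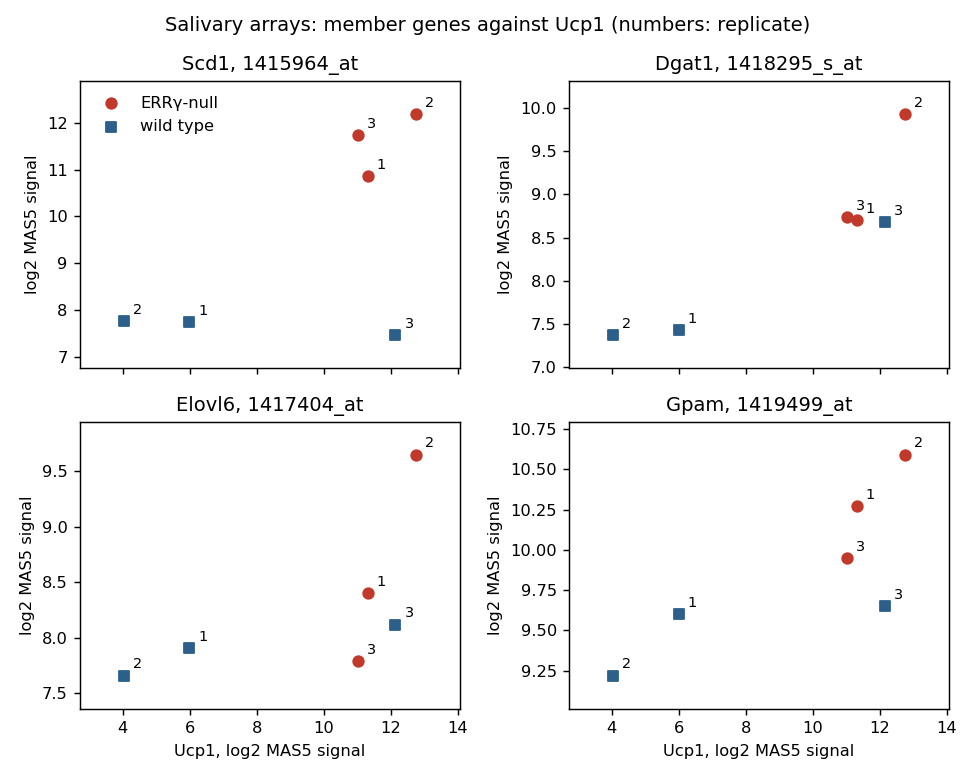
Log2 MAS5 signal of Scd1, Dgat1, Elovl6 and Gpam (vertical axes) against that of Ucp1 (horizontal axes) in the 6 salivary arrays, red circles ERRγ-null and blue squares wild type, numbered by replicate. Wild-type replicate 3, with Ucp1 at 12.14, lies far below the null arrays for Scd1 (7.46) and beside null replicates 1 and 3 for Dgat1 (8.68).

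Genes with a pattern like that of Scd1 were sought by the root-mean-square distance between their 5 tissue differences and those of 1415964_at, over all probe sets with 1 symbol tested in at least 1 tissue. The 5 nearest stood for 3 genes. A probe set of transthyretin Ttr lay at a distance of 0.40, with 4.07 in salivary tissue and -0.90 in stomach, and 2 further ones of Ttr lay at 0.69 and 0.71. Slc27a2, a very long chain acyl-CoA synthetase, lay at 0.41 with 3.54 in salivary tissue and -2.50 in stomach. Ehhadh, an enzyme of peroxisomal fatty acid oxidation, lay at 0.65 with 2.77 in salivary tissue and -1.02 in stomach. These differences describe likeness and are given without a test.

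Scd2, the desaturase of the developing brain and skin in mice, lies near Scd1 on chromosome 19 and did not move with it. At its bright probe set 1415822_at it read 9.35, 8.98 and 9.20 in null salivary tissue, against 9.86, 10 and 9.99 in wild-type salivary tissue. The null values were the lower ones and did not overlap with the others. Scd2 fell by 0.77 ± 0.14 (SE) in null salivary tissue (limma, adjusted p = 0.0111), while Scd1 rose in the same arrays. The Scd2 call was lost without wild-type replicate 2 (-0.75; limma, adjusted p = 0.066), with the adipocyte mean (-0.73; limma, adjusted p = 0.0636) or Ucp1 (-0.76; limma, adjusted p = 0.0926) in the fit, and when both low-Ucp1 wild-type arrays were left out (-0.81; limma, adjusted p = 0.263). In stomach this probe set differed by -0.15 ± 0.16 and did not pass (SE; limma, adjusted p = 0.510). A dim probe set, 1415824_at, read 6.37, 5.65 and 5.58 in null stomach, against 4.90, 4.92 and 4.86 in wild-type stomach, without overlap. It rose by 0.97 ± 0.24 (SE; limma, adjusted p = 0.0204), with a wild-type mean of 4.89 under the level of the filter (5.35), and the other Scd2 probe sets did not pass in stomach. It did not pass with the Gapdh gap as a covariate (0.55; limma, adjusted p = 0.70), and it was lost when wild-type replicate 2, wild-type replicate 3 or null replicate 1 was left out. The third, 1415823_at, passed in none of the 4 tissues in which it was tested.

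Among the enzymes that make palmitate, Fasn fell in stomach and liver. Fasn read 7.54, 7.81 and 7.26 in null stomach, against 8.64, 8.34 and 8.94 in wild-type stomach. In liver it read 5.72, 5.23 and 5.46 in null arrays, against 6.71, 6.63 and 7.15 in wild-type arrays. The groups did not overlap in either tissue, and null values were lower in both. Fasn fell by 1.10 ± 0.19 in null stomach (SE; limma, adjusted p = 0.00622) and by 1.36 ± 0.22 in null liver, 2.57-fold (SE; limma, adjusted p = 0.00972). The stomach fall stood beside the lower milk and mammary transcripts of null stomach (4 of 4 tested lower, median difference -3.23), and their part in it was not tested. The stomach call was lost with a covariate for the Gapdh gap (-0.71) or for Alb (-1.07), and when the 2 wild-type arrays rich in Alb were left out (-1.10; limma, adjusted p = 0.525, 0.055 and 0.126). In liver, where the Gapdh gap did not overlap between genotypes, the fit with it as a covariate called 0 of all 13577 probe sets. Fasn differed by -1.01 in that fit and did not pass (limma, adjusted p = 0.275). The liver call was also lost without wild-type replicate 3 (-1.20). In salivary tissue Fasn read 7.36, 8.14 and 7.79 in null arrays, against 8.05, 8.07 and 7.98 in wild-type arrays, so it did not rise with Scd1 there (-0.27 ± 0.20, SE; limma, adjusted p = 0.462).

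The promoter of Fasn is shown since Fasn had the larger fall of the synthesis enzymes. It spans 300 bases, 250 before and 50 after the start site, on chr11:120824498-120824797 of GRCm38.p6, minus strand, from RefSeq, and capitals mark the letters CCAAT on either strand, the box that factor NF-Y binds.
Fasn: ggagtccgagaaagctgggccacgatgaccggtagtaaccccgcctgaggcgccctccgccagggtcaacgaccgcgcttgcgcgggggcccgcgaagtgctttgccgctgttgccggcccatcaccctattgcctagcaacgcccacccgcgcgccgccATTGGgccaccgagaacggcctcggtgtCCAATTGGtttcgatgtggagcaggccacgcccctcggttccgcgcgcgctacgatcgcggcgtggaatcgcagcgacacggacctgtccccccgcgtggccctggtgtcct
CCAAT stood at -90, -62 and -59 from the start site, with the last 2 sharing letters, and 37.4% of 32851 promoters of this length hold it. The other motifs searched on both strands were the ERR response element TCAAGGTCA (0.423% of promoters), its half-site core AAGGTCA, which lies inside that element (4.72%), a sterol regulatory element TCACNCCAC (1.24%) and the E-box CACGTG (7.15%). None of these 4 was among the letters of the 7 promoter windows of the 6 members that the RefSeq table matched, Fasn, Acaca, Acly, Elovl6, Fads2 and Gpam, which says only that these letters are not in these windows.

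Acly followed Fasn in part. Its probe set 1451666_at read 7.70, 8.08 and 7.66 in null stomach, against 8.52, 8.41 and 8.91 in wild-type stomach. In salivary tissue it read 8.29, 8.58 and 8.63 in null arrays, against 9.04, 9.25 and 9.10 in wild-type arrays, and in liver 7.04, 7.30 and 7.15 in null arrays, against 7.77, 7.61 and 7.93 in wild-type arrays. Null values were lower without overlap in all 3 tissues. Acly fell by 0.80 ± 0.17 in null stomach (SE; limma, adjusted p = 0.0128) and by 0.63 ± 0.15 in null salivary tissue (SE; limma, adjusted p = 0.0313), and the liver difference of -0.61 ± 0.16 lay just beyond the threshold (SE; limma, adjusted p = 0.0519). The stomach call was lost with the Gapdh gap (-0.44; limma, adjusted p = 0.664) or Alb (-0.71; limma, adjusted p = 0.101) in the fit and when the wild-type arrays rich in Alb were left out (-0.71; limma, adjusted p = 0.191). The call in salivary tissue was lost without any 1 of 5 of the 6 arrays. Those 5 fits called 317 to 752 of all 13576 probe sets, against 1116 with all arrays. The salivary call was also lost with the adipocyte mean (-0.67; limma, adjusted p = 0.0989) or Ucp1 (-0.59; limma, adjusted p = 0.209) in the fit. Without the wild-type arrays of low Ucp1, which left 1 wild-type array, the salivary difference was -0.60. The brightest Acly probe set, 1439459_x_at, passed in no tissue, with differences of -0.40 in salivary tissue, -0.63 in liver and -0.06 in stomach. Its x_at suffix marks probe sets whose probes may match other transcripts. The remaining Acly probe sets were dim: 1425326_at passed in none of 3 tissues, and 1438389_x_at and 1439445_x_at, with group means of 3.73 or less, were not tested. Acaca, the carboxylase that commits acetyl-CoA to synthesis, had 1 dim probe set with group means of 4.71 to 5.56, tested in brain alone, where it differed by -0.05 ± 0.23 (SE; limma, adjusted p = 0.954). In liver Acaca read 4.61, 4.81 and 4.71 in null arrays, against 5.40, 5.01 and 5.68 in wild-type arrays, with the null values under the level of the filter (5.24), and it was not tested there.

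Elovl6 passed in no tissue when each tissue was fitted alone with its 6 arrays and no covariate. At 1417404_at it read 8.40, 9.65 and 7.79 in null salivary tissue, against 7.91, 7.66 and 8.12 in wild-type salivary tissue, and 8.66, 9.32 and 8.54 in null stomach, against 9.23, 9.31 and 9.45 in wild-type stomach. The groups overlapped in both tissues, and null replicate 2 was the highest null array in both. The differences were 0.72 ± 0.39 in salivary tissue and -0.49 ± 0.19 in stomach (SE; limma, adjusted p = 0.310 and 0.0935). The dimmer 1417403_at read 7.09, 8.37 and 6.72 in null salivary tissue, against 5.86, 5.85 and 6.89 in wild-type salivary tissue, and differed by 1.19 ± 0.42 there and by -0.28 ± 0.19 in stomach (SE; limma, adjusted p = 0.122 and 0.289). The wild-type value of 6.89 belonged to replicate 3, the wild-type array with high Ucp1, and the null mean lay 0.5 above it. The salivary difference of 1417403_at passed in the fit over all 30 arrays, which pools the spread of all groups (1.19; limma, adjusted p = 0.00564). It also passed with the Gapdh gap in the fit (1.63; limma, adjusted p = 0.0344), and in no other alternative fit. Without null replicate 2 both probe sets passed in stomach, 1417404_at at -0.73 and 1417403_at at -0.49 (limma, adjusted p = 0.00438 and 0.0392). The contrast of stomach minus salivary tissue was past the threshold at both probe sets, with -1.21 ± 0.36 and -1.48 ± 0.42 (SE; limma over all 30 arrays, adjusted p = 0.0353 and 0.0256). Without the wild-type salivary arrays of low Ucp1 and the wild-type stomach arrays of high Alb, a fit added with the values known, these contrasts were -0.883 and -0.60 and did not pass (limma, adjusted p = 0.601 and 0.801).

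Fads1 and Fads2, neighbours on chromosome 19 that act in the same pathway of polyunsaturated fatty acids, fell in stomach and liver. Fads1 read 7.60, 8.16 and 7.85 in null stomach, against 8.42, 8.35 and 8.63 in wild-type stomach. In liver it read 8.28, 9.40 and 8.78 in null arrays, against 9.70, 9.76 and 9.82 in wild-type arrays. Null values were lower without overlap in both tissues, and the null liver arrays spread over more than 1 log2 unit. Fads1 fell by 0.60 ± 0.16 in null stomach (SE; limma, adjusted p = 0.0279) and by 0.94 ± 0.24 in null liver (SE; limma, adjusted p = 0.0496). Each of these calls was lost without any 1 of 5 of the 6 arrays. Those fits called 1440 to 2202 of all tested probe sets in stomach, against 3186 with all arrays. In liver they called 194 to 325, against 941. The stomach difference was -0.28 with the Gapdh gap in the fit (limma, adjusted p = 0.783), -0.56 with Alb (limma, adjusted p = 0.155) and -0.55 when the wild-type arrays rich in Alb were left out (limma, adjusted p = 0.293).

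Fads2 fell in stomach. At 1419031_at it read 5.19, 5.37 and 4.59 in null stomach, against 6.52, 6.79 and 7.37 in wild-type stomach. The groups did not overlap, and Fads2 fell by 1.84 ± 0.27 (SE; limma, adjusted p = 0.00376) and its null mean of 5.05 was below the filter level (5.35), so the fold is bounded by background. With the Gapdh gap as a covariate it was -1.90 and did not pass (limma, adjusted p = 0.327), and the same held when both wild-type arrays rich in Alb were left out (-1.47; limma, adjusted p = 0.142). In liver this probe set read 5.31, 7.23 and 6.19 in null arrays, against 7.70, 7.46 and 7.52 in wild-type arrays, lower without overlap but not past the threshold (-1.32 ± 0.39, SE; limma, adjusted p = 0.0761). The other probe set, 1449325_at, read 6.97, 7.69 and 7.13 in null liver, against 7.98, 8.03 and 8.34 in wild-type liver. It fell by 0.85 ± 0.21 (SE; limma, adjusted p = 0.0428), a call lost without any 1 of 5 of the 6 arrays. Those 5 fits called 194 to 325 of all 13577 probe sets, against 941 with all arrays. Null replicate 2 was the highest null liver array for Fads1 and for both Fads2 probe sets, and without it the liver difference of 1419031_at was -1.81 and passed (limma, adjusted p = 0.00168). In stomach 1449325_at read 4.91, 4.97 and 4.61 in null arrays, against 5.71, 5.63 and 6.14 in wild-type arrays, lower without overlap but under the filter and not tested. In salivary tissue Fads2 lay under the filter at both probe sets.

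The promoter of Fads2, on chr19:10101454-10101753 of GRCm38.p6, minus strand, from RefSeq, is shown beside that of Fasn because both genes were lower in null stomach and liver. It holds no match to any of the 5 motifs, so no letters are in capitals.
Fads2: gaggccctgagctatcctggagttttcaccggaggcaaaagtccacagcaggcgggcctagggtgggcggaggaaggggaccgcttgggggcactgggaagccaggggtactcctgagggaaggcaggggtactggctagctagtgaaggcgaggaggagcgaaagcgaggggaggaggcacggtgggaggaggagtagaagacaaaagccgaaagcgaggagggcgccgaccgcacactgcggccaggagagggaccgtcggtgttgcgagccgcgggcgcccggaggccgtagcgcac

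**Figure D4:**
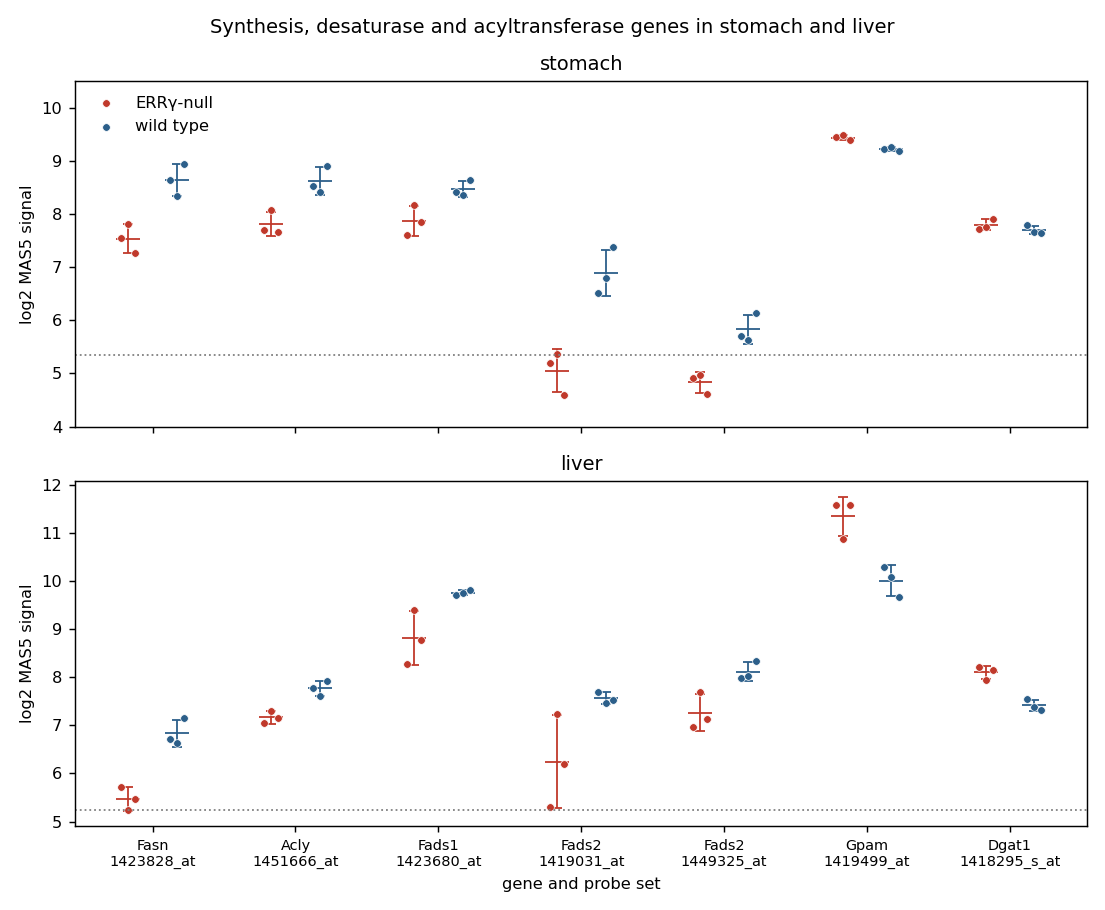
Log2 MAS5 signal of 7 member probe sets in stomach (top) and liver (bottom). Points are arrays, red ERRγ-null and blue wild type, bars are mean and SD of 3 arrays, and the dotted line is the level of the filter (5.35 in stomach and 5.24 in liver). Null arrays lie under wild-type arrays for Fasn, Acly, Fads1 and Fads2 in both tissues and above them for Gpam.

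Gpam, the acyltransferase that opens glycerolipid assembly, went the other way from Fasn and the Fads genes in liver. At 1419499_at it read 11.58, 10.87 and 11.58 in null liver, against 10.29, 10.08 and 9.66 in wild-type liver. In salivary tissue it read 10.27, 10.59 and 9.95 in null arrays, against 9.60, 9.22 and 9.65 in wild-type arrays. Gpam rose by 1.33 ± 0.22 in null liver, 2.52-fold (SE; limma, adjusted p = 0.0109), and by 0.78 ± 0.19 in null salivary tissue (SE; limma, adjusted p = 0.035). The liver call was lost without null replicate 3 (1.22; limma, adjusted p = 0.0601). With the Gapdh gap as a covariate the liver difference was 0.84 and did not pass (limma, adjusted p = 0.304), in a fit that called 0 of all 13577 probe sets. The salivary call was lost when replicate 1 or replicate 2 of either genotype was left out. Those fits called 317 to 1359 of all 13576 probe sets, against 1116 with all arrays. The salivary call was also lost with the adipocyte mean (0.56; limma, adjusted p = 0.21) or Ucp1 (0.54; limma, adjusted p = 0.293) in the fit. Without the wild-type arrays of low Ucp1, which left 1 wild-type array, the salivary difference was 0.62. Null values lay above wild-type values without overlap in all 5 tissues, with differences of 0.21 in stomach, 0.45 in kidney and 0.26 in brain that did not pass (limma, adjusted p = 0.125, 0.075 and 0.436). The second Gpam probe set, 1425834_a_at, had group means of 5.68 or less and was tested in brain alone, where it did not pass. In salivary tissue it read 6.04, 5.06 and 5.71 in null arrays, against 4.93, 4.40 and 3 in wild-type arrays.

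RefSeq gives Gpam 2 start sites, and the promoter of the outer one, on chr19:55127189-55127488 of GRCm38.p6, minus strand, is shown since Gpam at 1419499_at stood higher in all 5 null tissues. Capitals mark CCAAT at -74, on the reverse strand, and the inner start site had no match to the 5 motifs.
Gpam: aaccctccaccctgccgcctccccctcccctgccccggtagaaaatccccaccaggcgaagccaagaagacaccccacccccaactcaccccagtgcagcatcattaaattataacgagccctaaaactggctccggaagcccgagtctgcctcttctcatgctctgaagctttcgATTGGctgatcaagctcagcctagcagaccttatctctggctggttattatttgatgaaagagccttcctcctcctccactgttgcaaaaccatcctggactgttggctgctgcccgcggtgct

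Dgat1, which completes triglycerides, rose in liver. It read 8.21, 7.95 and 8.14 in null liver, against 7.54, 7.39 and 7.31 in wild-type liver. Dgat1 rose there by 0.69 ± 0.15 (SE; limma, adjusted p = 0.0306), a call lost without any 1 of 5 of the 6 arrays. Those 5 fits called 194 to 325 of all 13577 probe sets, against 941 with all arrays. In salivary tissue Dgat1 read 8.70, 9.93 and 8.74 in null arrays, against 7.43, 7.37 and 8.68 in wild-type arrays. The wild-type value of 8.68 belonged to replicate 3, the wild-type array with high Ucp1, and lay just under the lowest null value. The salivary difference of 1.30 ± 0.40 did not pass (SE; limma, adjusted p = 0.0845), and it was 1.72 and passed without that array (limma, adjusted p = 0.0193). In stomach, kidney and brain Dgat1 differed by 0.10 or less in size.

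In kidney and brain no member passed the limma test, and 1 of 14 and 2 of 18 had an unadjusted p under 0.05. Gpam in kidney (0.45) and Acly at 1425326_at (0.68) and Gpam (0.26) in brain were those members. The share of all tested probe sets under that unadjusted level was not counted, so whether these members stood out was not tested. Scd1 at 1415964_at read 6.73, 6.89 and 6.75 in null kidney, against 6.31, 6.66 and 6.62 in wild-type kidney, which did not overlap but did not pass (0.26 ± 0.14, SE; limma, adjusted p = 0.441). In brain it read 7.93, 7.67 and 8.19 in null arrays, against 7.61, 7.77 and 7.85 in wild-type arrays, with overlap. Scd2 in brain was the steadiest of these values, at 11.08, 11.10 and 11.09 in null arrays, against 11.07, 11.12 and 11.13 in wild-type arrays.

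The null effect was compared between tissues in 1 fit over all 30 arrays, taken as independent. Since Xist followed the replicate number within a genotype in all 5 tissues, same-numbered arrays may share an animal, which the labels do not settle and the fit leaves out. An F test over the 5 tissues passed for 11 of 18 member probe sets, standing for 8 genes, beside 15.3% of all tested probe sets (limma, adjusted p under 0.05). The 11 became 5 without null replicate 1 and 4 without any 1 wild-type replicate, and Fads1 and Acly at 1439459_x_at did not pass in 8 of 11 alternatives. In the contrast of stomach minus salivary tissue 7 of 15 members passed, beside 9.49% of all, and in the other 9 pairs 29 of 148 member contrasts passed. An alternative fit held a term for each genotype and replicate number. There 11 of 18 F tests, 8 of 15 contrasts of stomach minus salivary tissue and 33 of 148 contrasts of the other pairs passed. The shares over all probe sets in that fit were not counted. Stomach differed from kidney for 1 of 14 members beside 2.51% of all, from liver for 4 of 15 beside 10.1%, and from brain for 5 of 18 beside 7.3%. Kidney differed from liver for 3 of 16 beside 2.39%, from salivary tissue for 4 of 15 beside 2.34%, and from brain for 0 of 18 beside 0.0399%. Liver differed from salivary tissue for 5 of 16 beside 8.2% and from brain for 4 of 18 beside 4.26%, and salivary tissue from brain for 3 of 18 beside 3.13%. Scd1 accounted for 12 of the 36 contrasts that passed over the 10 pairs. Gpam had a lower null effect in stomach than in liver by 1.12 ± 0.24 (SE; contrast -1.12, limma, adjusted p = 0.00334). Fasn had a lower one in liver than in salivary tissue (-1.09 ± 0.32, SE; limma, adjusted p = 0.0354) and than in brain (-1.52 ± 0.32, SE; limma, adjusted p = 0.00706), and Fads1 a lower one in liver than in salivary tissue (-0.89 ± 0.27, SE; limma, adjusted p = 0.0391). Scd2 at 1415822_at had a higher null effect in liver than in salivary tissue (1.04 ± 0.26, SE; limma, adjusted p = 0.0124). Dgat1 had a lower one in stomach (-1.20 ± 0.36) and in kidney (-1.33 ± 0.36) than in salivary tissue (SE; limma, adjusted p = 0.0354 and 0.0471). This fit pools the spread of all 10 groups, and Dgat1 spread most in salivary tissue (SD 0.70 in null and 0.74 in wild-type arrays). In salivary tissue fitted alone its difference had an SE of 0.40 and did not pass (limma, adjusted p = 0.0845). No fit of the kidney contrast left out the wild-type salivary arrays of low Ucp1. Without the wild-type salivary arrays of low Ucp1 and the wild-type stomach arrays of high Alb, the Dgat1 contrast of stomach minus salivary tissue was -0.437 and did not pass (limma, adjusted p = 0.804).

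Wild-type levels gave each gene an order of tissues, read within a probe set since levels of different probe sets cannot be compared. Scd2 was highest in wild-type brain (11.11 ± 0.03, SD, n = 3), 1.01 above kidney (10.09 ± 0.06; limma, adjusted p = 3.78e-05), did not differ past the threshold between kidney, salivary tissue (9.95 ± 0.08) and stomach (9.86 ± 0.17) as neighbours, and was lowest in liver (8.01 ± 0.24). Fasn was also highest in wild-type brain (9.27 ± 0.23) and lowest in liver (6.83 ± 0.28), with stomach (8.64 ± 0.30) next to brain. Scd1 at 1415964_at was highest in wild-type stomach (8.64 ± 0.51), 0.89 above brain (limma, adjusted p = 0.00195), and low in liver (6.76 ± 0.12) and kidney (6.53 ± 0.19), which did not differ past the threshold. The wild-type stomach arrays high in Alb read 8.91 and 8.95 and the other read 8.05, against 7.61 to 7.85 in wild-type brain. The part of this difference in Alb in the order was not tested. At the dim 1415965_at wild-type brain (5.59) stood first and stomach (5.25) next, and neighbours in the order did not differ past the threshold (brain and stomach: limma, adjusted p = 0.221). Null salivary tissue, at 11.60 ± 0.68 (SD, n = 3), thus stood above every wild-type tissue for Scd1 at 1415964_at.

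Liver led for the desaturase Fads1 (9.76 ± 0.06), 0.92 above brain (limma, adjusted p = 0.000132), and for Gpam (10.01 ± 0.32), 0.52 above salivary tissue (limma, adjusted p = 0.0111), all in wild-type arrays (SD, n = 3). Fads1 was lowest in wild-type salivary tissue (7.07 ± 0.25). Fads2 at 1419031_at was highest in wild-type brain (7.97 ± 0.16) and liver (7.56 ± 0.12), which did not differ past the threshold, and lowest in salivary tissue (4.77 ± 0.36). The order differed at 1449325_at. There wild-type liver (8.12 ± 0.20) stood 1.37 above brain (6.74 ± 0.09; limma, adjusted p = 4.83e-05), and kidney (4.34 ± 0.54) was lowest, under the filter level. Elovl6 at 1417404_at was highest in wild-type stomach (9.33 ± 0.11) and kidney (9.32 ± 0.05) and lowest in salivary tissue (7.90 ± 0.23). Of its neighbours in the order only brain and liver differed past the threshold (limma, adjusted p = 0.0288). Kidney and brain did not (limma, adjusted p = 0.2), nor did liver and salivary tissue (limma, adjusted p = 0.224). Acly at 1451666_at was highest in wild-type salivary tissue (9.13 ± 0.11) and lowest in liver (7.77 ± 0.16). Dgat1 had no neighbours that differed, from 7.83 ± 0.74 in wild-type salivary tissue to 7.41 ± 0.12 in wild-type liver. Over all member probe sets and the 10 pairs of tissues, 99 of 163 contrasts of wild-type levels passed (limma). Stomach differed from kidney for 5 of 14 members beside 29.8% of all tested probe sets, from liver for 10 of 15 beside 55.8%, from salivary tissue for 9 of 15 beside 38.3%, and from brain for 8 of 18 beside 59.1%. Kidney differed from liver for 11 of 16 beside 55.3%, from salivary tissue for 8 of 15 beside 39%, and from brain for 11 of 18 beside 54.2%. Liver differed from salivary tissue for 13 of 16 beside 52.7% and from brain for 13 of 18 beside 65.8%, and salivary tissue from brain for 11 of 18 beside 58.5%.

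**Figure D5:**
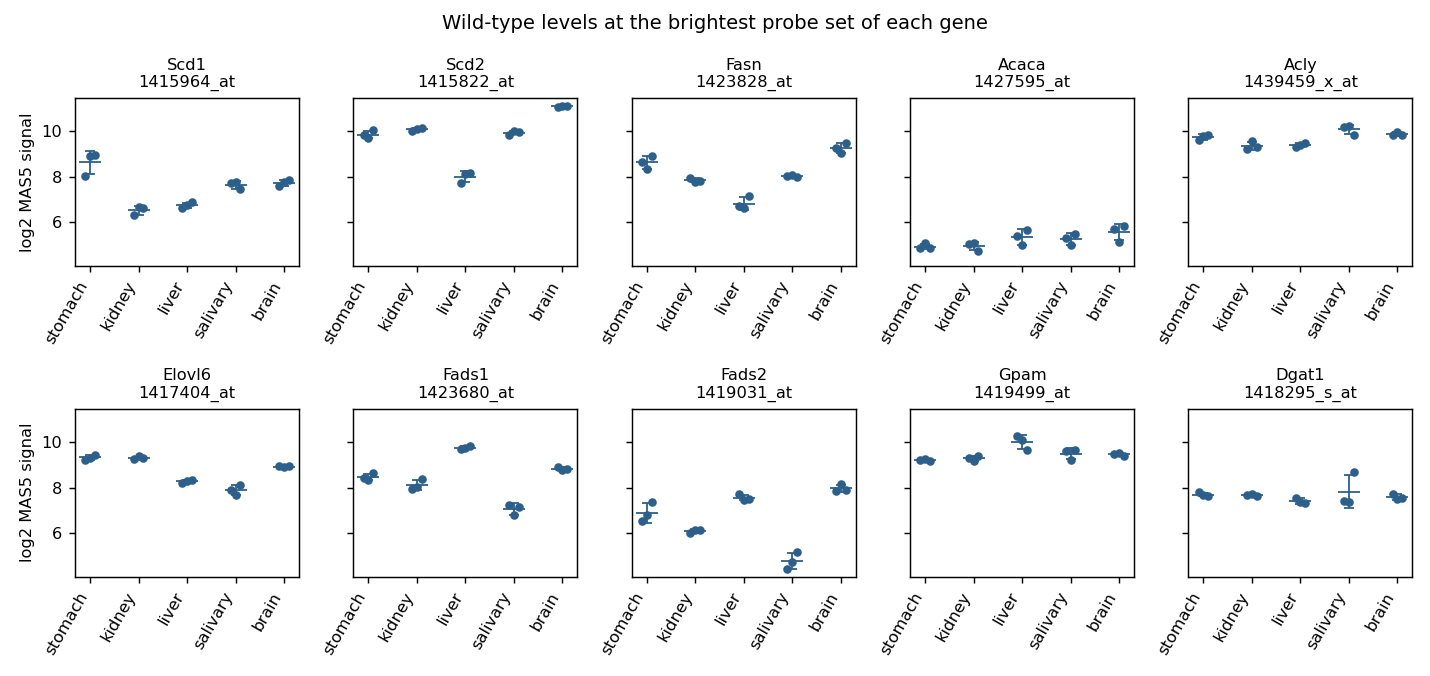
Log2 MAS5 signal in wild-type arrays at the brightest probe set of each of the 10 genes, by tissue. Points are arrays and bars are mean and SD of 3 arrays, and levels are to be compared between tissues within a panel. Scd2 and Fasn peak in brain, Fads1 and Gpam in liver and Scd1 in stomach (8.64).

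Other genes of these pathways were read at the brightest probe set of each gene. Of 14 genes of fatty acid synthesis and its substrates 12 had a probe set. In stomach 2 of 10 tested fell and 0 rose, beside 12.2% of all tested probe sets lower and 11.2% higher: Mid1ip1 (-1.08), which activates acetyl-CoA carboxylase, and Thrsp (-1.41), a protein of lipogenic tissues. In liver 2 of 9 fell and 0 rose, beside 3.46% of all lower and 3.47% higher: the NADPH-producing isocitrate dehydrogenase Idh1 (-2.14) and Mid1ip1 (-0.85), while 0 of 9 in kidney, 0 of 10 in salivary tissue and 0 of 11 in brain passed (limma). Acacb, named after its values were seen, was under the filter in all 5 tissues and not tested. It read 5.48, 5.43 and 6.45 in null liver, against 2.58, 2.10 and 1.85 in wild-type liver. In salivary tissue it read 6.76, 7.16 and 6.55 in null arrays, against 1.94, 2.14 and 5.84 in wild-type arrays. Its null means were lower in stomach (1.95 against 2.62) and kidney (2.12 against 3.42). Of 18 genes of elongation and desaturation 16 had a probe set. In stomach 4 of 13 fell and 0 rose, beside the same 12.2% and 11.2% of all, with the enoyl reductase Tecr (-1.37), the dehydratase Hacd1 (-0.78), Fads3 (-0.90) and the ketoacyl reductase Hsd17b12 (-0.49). In liver 3 of 13 fell and 0 rose, beside 3.46% and 3.47% of all, with the elongase Elovl1 (-0.74), Tecr (-0.83) and Hsd17b12 (-0.81), and in salivary tissue 1 of 12 fell, Elovl1 (-0.54), beside 4.72% of all lower. The list medians in stomach were -0.09 and 0.00, and in liver -0.28 and -0.41, against 0.03 over all tested probe sets in each. The larger control gap and the lower Atp4b, milk and muscle transcripts of null stomach stood beside these falls, and their part in them was not tested.

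Genes of triglyceride synthesis moved both ways, with the phosphatidate phosphatase Lpin1 beside Gpam. Of 19 genes 14 had a probe set. In liver 2 of 11 rose and 3 fell, beside 6.93% of all tested probe sets called in either direction, with Lpin1 (2.50) and Lpin2 (1.55) higher and the glycerol-phosphate dehydrogenase Gpd1 (-2.06), the monoacylglycerol acyltransferase Mogat2 (-0.95) and Dgat2 (-0.63, named after its value was seen) lower. Lpin1 read 10.22, 9.93 and 10.21 in null salivary tissue, against 7.49, 7.34 and 7.82 in wild-type salivary tissue, without overlap (2.57 ± 0.16, SE; limma, adjusted p = 0.000168), and Agpat5 fell there (-1.64), which made 2 of 10 called beside 8.22% of all. Lpin1 rose in null kidney too (0.84 ± 0.14, SE; limma, adjusted p = 0.0292), where Mogat2 fell (-0.93), 2 of 11 beside 0.781% of all. In stomach Dgat2 rose (0.44) and Acsl5, which activates fatty acids, fell (-0.56), 2 of 9 beside 23.5% of all, and in brain 0 of 12 passed (limma).

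Among 16 regulators of lipid synthesis 13 had a probe set. Srebf1, which encodes SREBP1c and drives Fasn and Scd1 in adult liver, differed by 0.11 in stomach, 0.15 in kidney, -0.28 in liver, -0.11 in salivary tissue and 0.49 in brain, and passed in none (limma, adjusted p = 0.578, 0.70, 0.293, 0.709 and 0.397). Mlxipl, the carbohydrate-responsive factor ChREBP, differed by -0.80 in liver without passing (limma, adjusted p = 0.0673). In liver 3 of 11 rose, beside 3.47% of all higher: Lpin1, Insig2 (1.60), which retains SREBP in the endoplasmic reticulum, and Ppara (0.71), the receptor that drives fatty acid oxidation. In stomach 1 of 10 fell, the SREBP escort Scap (-0.92), beside 12.2% of all lower. Lpin1 was the 1 regulator past the threshold in kidney (1 of 9, beside 0.412% of all higher) and in salivary tissue (1 of 10, beside 3.50%), and 0 of 9 passed in brain.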

How the data were processed

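Expression was measured on Affymetrix MOE430A arrays, 1 array per sample. The values the authors deposited are log2 signals made with MAS5, according to the submitters' processing notes; its version and scaling are not given in the sources used. Base 2 was settled from the values. Of 22690 probe sets 64 array controls were set aside. The probe table supplied with the data names 1 symbol for 20380 probe sets, more than 1 for 691 and no symbol for 1555. No member symbol stood on a probe set with several.

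Genotypes were contrasted tissue by tissue in R 4.3.3 by limma 3.58.1 (lmFit, eBayes with a mean-variance trend), on values as deposited, for probe sets whose mean reached the 40th percentile of the tissue, with Benjamini-Hochberg adjustment over all of them and a threshold of 0.05. Differences between tissues and wild-type levels came from a limma fit of 10 groups over all 30 arrays. All member probe sets are named, as are up to 4 genes per list and tissue by smallest p and the 5 probe sets nearest to Scd1. The steps were tested on simulated data. Members, lists and tests were chosen with earlier results of these data known. The adipocyte covariate used Adipoq and Fabp4 only, since Plin1 and Cfd had no probe set in the table. Promoters came from the RefSeq table on GRCm38.p6. Alternatives are in the closing part. Same-numbered null and wild-type arrays of a tissue did not deviate together (correlation over 0.1 in 1 of 15 pairs), so no block entered the fits other than as an alternative. Arrays of the same number and genotype in 2 tissues correlated over 0.1 in 31 of 60 pairs.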

Additional observations from a re-analysis of the deposited data

Results flagged for a closer look

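The null effect differed between the 5 tissues by the F test (limma over 30 arrays, Benjamini-Hochberg over all probe sets tested) for 11 member probe sets. For Scd1 the adjusted p was 2.83e-10 at 1415964_at and 4.65e-05 at 1415965_at, with 3 of 3 null arrays above all wild-type arrays in salivary tissue at both and, in stomach, 3 of 3 below at the first. For Fads2 it was 0.00678 at 1449325_at and 0.00855 at 1419031_at. For Fasn it was 0.00604 and for Gpam 0.00717, the one lower and the other higher in null liver in 3 of 3 arrays. For Acly it was 0.0152 at 1451666_at and 0.044 at 1439459_x_at. For Scd2 at 1415822_at it was 0.0293, for Dgat1 0.0303 and for Fads1 0.0442. Alternative fits left out each array in turn or weighted the arrays, but no group of 3 arrays was tested for outlying arrays.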

How the results depend on the processing

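Scd1 at 1415964_at kept its rise in salivary tissue under all 21 alternatives, at 3.65 to 4.31, and its stomach minus salivary contrast under all 12, at -6.04 to -5.27. No member called in the reported fits reversed, and of 1249 alternative fits of 71 results not called 26 passed. The 6 member calls in stomach became 2 with Alb as a covariate, 0 with the Gapdh gap as a covariate and 0 when both wild-type arrays rich in Alb were left out, where 504, 2 and 24 of all 13576 probe sets were called, and 4 to 8 when 1 array was left out. The 6 calls in liver became 3 with no filter, 3 with no mean-variance trend, 3 with Alb and 3 with the adipocyte mean as a covariate. They became 0 with the Gapdh gap, where 0 of all 13577 probe sets were called, and 1 to 9 when 1 array was left out. Leaving out 1 array moved the calls over all probe sets too. They ranged from 1440 to 3620 in stomach, 194 to 1801 in liver and 317 to 1359 in salivary tissue. With all arrays they were 3186, 941 and 1116. The 5 calls in salivary tissue became 8 in the fit over all 30 arrays, 3 with no mean-variance trend, 3 with Alb and 2 with the adipocyte mean as a covariate, and 2 to 5 when 1 array was left out. With Ucp1 as a covariate they became 2 and without the wild-type arrays of low Ucp1 they became 1, both added after the data were seen. With the replicate number as a block, which the numbers do not justify as a pairing of null and wild-type arrays, they became 2. The 11 F tests became 4 to 11 and the 7 contrasts of stomach minus salivary tissue became 3 to 7 when 1 array was left out per tissue, and these 7 became 2 without the low Ucp1 and high Alb arrays, also added later. The 29 contrasts of other pairs became 11 to 38, and the 99 wild-type contrasts stayed within 81 to 107. The cause of these changes was not tested, beyond the smaller number of arrays where arrays were left out.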
